A study of Homo sapiens with 6 samples.

Results

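The p53 pathway was followed through 29 genes in SW480, a long-established cell line grown from a human colorectal adenocarcinoma, after Amuc_0904 or buffer was given. The genes were chosen by name as the 29 rows of a table of 60664 genes whose symbol belongs to the p53 feedback loop or to textbook targets of p53. RNA was sequenced in 6 libraries, 3 from cells given Amuc_0904 and 3 from cells given buffer alone. All libraries came from the same line with the label WT, a label that speaks of no change made for the study. Amuc_0904 is written like a gene of Akkermansia muciniphila, a bacterium of the gut, and the labels give no dose, time or preparation. They do not say whether replicates were separate cultures, so p-values measure only the spread between these libraries.

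p53 is a transcription factor that is kept scarce by the ubiquitin ligase MDM2 and is stabilised when DNA is damaged or cells are stressed. Active p53 raises genes for cell cycle arrest, DNA repair, apoptosis and metabolism, and it raises MDM2 itself, which closes a feedback loop. Several of these targets can also be raised by other stress pathways. The comparison of Amuc_0904 with buffer asks which of these genes differ between the treatments.

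The DNA element that p53 binds is made of 2 adjoining half-sites of 10 bases. RefSeq promoter windows on GRCh38.p14, from 250 bases before to 50 after each gene start, were at hand for 25 of the 29 genes. A match to the p53 consensus with at most 2 mismatches in 20 bases, and none at the 4 C and G core bases, was found in 3 of the 25 (12%), against 0.359% of the 27305 genes with a window. The consensus reads the same on both strands, and a match is a description of letters and not a bound site. Sequence outside these windows was not searched, so a member with no match may hold an element elsewhere. The members were chosen as p53 pathway genes, so their higher share is no separate evidence. The 3 promoters are shown because they are the members whose own promoter window holds the element the group is named for. Each is the plus strand from 100 bases before the match to 14 after it, with the match in capitals.
AEN: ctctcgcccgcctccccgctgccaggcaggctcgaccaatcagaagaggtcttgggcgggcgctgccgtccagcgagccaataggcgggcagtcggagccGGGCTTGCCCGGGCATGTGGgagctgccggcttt
DDB2: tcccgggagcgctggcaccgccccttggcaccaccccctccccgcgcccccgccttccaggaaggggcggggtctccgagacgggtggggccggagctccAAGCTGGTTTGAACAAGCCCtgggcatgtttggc
MDM2: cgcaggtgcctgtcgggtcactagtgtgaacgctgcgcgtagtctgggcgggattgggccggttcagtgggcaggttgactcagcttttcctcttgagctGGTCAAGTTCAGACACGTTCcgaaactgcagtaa
The stretch of AEN lies at chr15:88621206-88621339, that of DDB2 at chr11:47214869-47215002 and that of MDM2 at chr12:68808823-68808956. The DDB2 match has 1 mismatch and begins 5 bases before the RefSeq gene start, while those of AEN and MDM2 have 2 mismatches. Gene starts in the GENCODE 29 annotation differ from these. There the genes begin at 88621296 (AEN), 47214465 (DDB2) and 68808176 (MDM2), so all 3 matches lie inside them. These 3 genes were among the members with the smallest differences between treatments, with log2 fold changes of 0.01 for AEN, -0.05 for DDB2 and 0.04 for MDM2.

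The deposited values are TPM, a length-scaled share of each library, so levels of different genes can be compared. Differences are given as the log2 fold change, Amuc_0904 minus buffer, of log2(TPM + 1), a scale that shrinks the change of genes with few TPM. Genes with at least 1 TPM in at least 3 libraries were tested with limma over 14421 genes at once. Of the 29 members 27 were tested, and none passed an adjusted p of 0.05 (0 of 27, lowest adjusted p = 0.17, against 1.37% of all tested genes). At an unadjusted p under 0.05 there were 5 members (18.5%), against 20.8% of all tested genes, and limma was the only tool run. Libraries of the 2 treatments did not overlap for 5 tested members (18.5%), against 27.1% of all tested genes. The median log2 fold change of the members was -0.00, beside -0.06 over all tested genes, with 13 members above 0 and 14 below (62.5% of all tested genes were below 0). All 27 intervals (95%) lay within 1 log2 unit of 0 and 24 lay within 0.5, so a doubling of any tested member on this scale lies outside its interval.

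**Figure D1:**
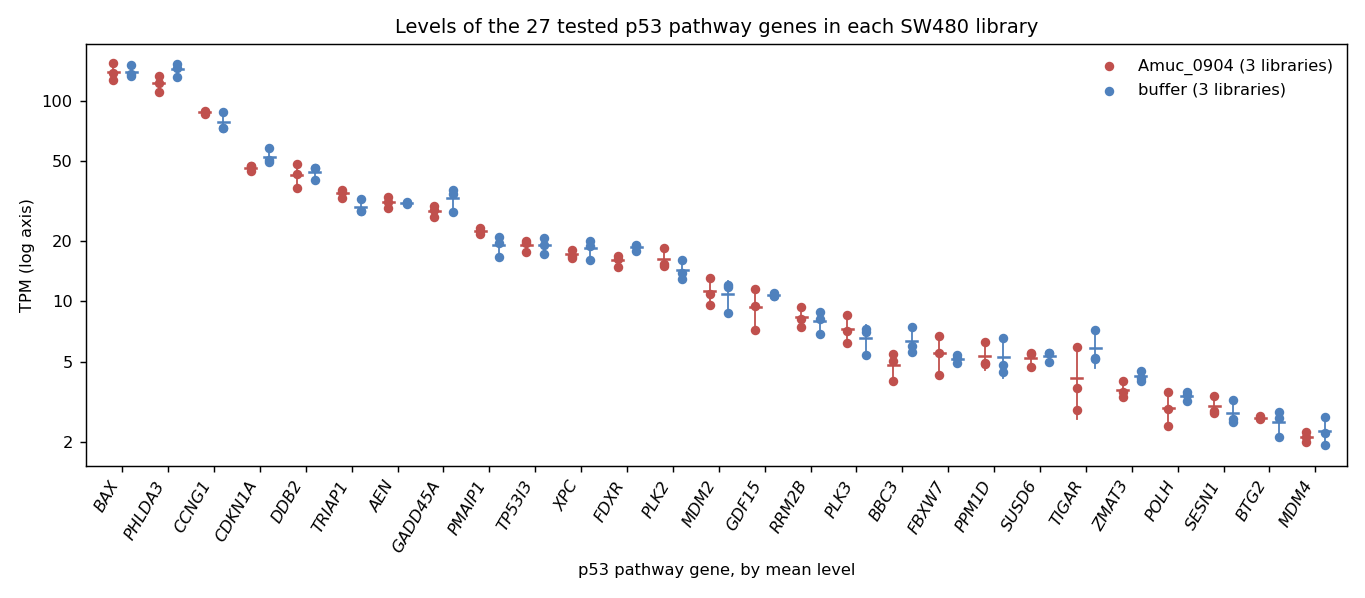
TPM on a log axis for each of the 27 tested members in order of mean level, with Amuc_0904 libraries in red, buffer libraries in blue, bars for the mean and lines for the SD (3 libraries per group). Levels span BAX at about 140 TPM down to MDM4 at about 2 TPM, and for 22 of the 27 members the libraries of the treatments overlap.

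The libraries themselves differed in ways that bear on such small differences. Between 14244 and 14586 genes per library had at least 1 TPM, and the number of reads behind the TPM values is unknown. The slope of expression with transcript GC content, in log2 units per 10 percentage points, was -0.04, 0.00 and -0.11 in Amuc_0904 replicates 1, 2 and 3, against 0.00, 0.09 and 0.05 in buffer replicates 1, 2 and 3. Mitochondrially encoded transcripts held 9.86%, 10.2% and 12.8% of TPM in the Amuc_0904 libraries, against 11.4%, 11.5% and 10.2% in the buffer libraries. Of 8 colorectal epithelial markers 7 reached 1 TPM, with a summed level of 7092 to 7380 TPM in Amuc_0904 libraries and 7907 to 8148 TPM in buffer libraries. KRT20 stayed at or under 0.25 TPM and VIL1 at or under 1.09 TPM, so these 2 markers of differentiated colon cells were near absent. KRT8, KRT18 and KRT19 make up most of that sum. CDH1, which encodes E-cadherin, fell to 3.80 ± 0.246 TPM with Amuc_0904, against 7.01 ± 1.20 TPM with buffer (SD, 3 libraries each; log2 fold change -0.73, limma adjusted p = 0.044), a call that held in 3 of 16 alternatives and in none that left out a library. CDX2, an intestinal transcription factor gene, averaged 18.7 ± 0.528 TPM with Amuc_0904 and 27.97 ± 5.22 TPM with buffer and did not pass (limma adjusted p = 0.077). The part of these markers in the members' differences was not tested. Summed markers of fibroblasts, leukocytes and endothelium stayed at or under 3.75 TPM in each library, with the defining genes DCN and PTPRC listed at 0 throughout.

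None of the 3 genes of the feedback loop on p53 passed the test, and each had overlapping libraries. MDM2, the ubiquitin ligase that marks p53 for destruction, had 9.55, 13.1 and 10.9 TPM in Amuc_0904 libraries, against 12.1, 11.8 and 8.77 TPM in buffer libraries. The lowest and the highest of the 6 libraries were in different groups and the ranges overlapped. Its log2 fold change was 0.04 (SE 0.15, 95% interval -0.30 to 0.38; limma adjusted p = 0.90). MDM4, the relative of MDM2 that blocks p53 at its targets, had 1.99, 2.22 and 2.10 TPM with Amuc_0904, against 2.64, 2.20 and 1.92 TPM with buffer. All Amuc_0904 values lay inside the buffer range (log2 fold change -0.06, SE 0.14, limma adjusted p = 0.84). PPM1D, the phosphatase WIP1 that reverses damage signalling to p53, had 4.90, 4.88 and 6.27 TPM with Amuc_0904, against 6.54, 4.84 and 4.42 TPM with buffer. Again the ranges overlapped almost entirely (log2 fold change 0.03, SE 0.16, limma adjusted p = 0.94). MDM2 overlaps 4 annotated genes, MDM4 and PPM1D 1 each, and the strand protocol is unknown, so reads of these neighbours may be included.

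Among the 6 genes of cell cycle arrest and stress kinases none passed, and their differences pointed both ways. CDKN1A, which encodes the kinase inhibitor p21 and is the classical arrest target of p53, had 44.5, 47.5 and 47.5 TPM in Amuc_0904 libraries, against 50.6, 58.2 and 49.5 TPM in buffer libraries. All 3 Amuc_0904 libraries lay below all 3 buffer libraries, as for 20.1% of all tested genes. The group means were 46.5 ± 1.71 and 52.8 ± 4.77 TPM (SD, 3 libraries each), and the log2 fold change of -0.17 (SE 0.08) did not pass (limma adjusted p = 0.25). CDKN1A lies on chromosome 6 from 36676460 to 36687339 (GRCh38, GENCODE 29) and overlaps the noncoding gene DINOL on the other strand. GADD45A, a growth arrest and stress gene, had 30.0, 28.6 and 26.4 TPM with Amuc_0904, against 36.0, 34.5 and 27.8 TPM with buffer. Here buffer replicate 3 reached down into the Amuc_0904 range (log2 fold change -0.20, SE 0.11, limma adjusted p = 0.34). CCNG1, which encodes cyclin G1, had 88.2, 85.9 and 88.8 TPM with Amuc_0904, against 87.8, 72.9 and 73.6 TPM with buffer. Only buffer replicate 1 came up to the Amuc_0904 libraries, and the log2 fold change was 0.17 (SE 0.08, limma adjusted p = 0.28). The stress-induced kinase PLK2 had 15.3, 18.5 and 15.1 TPM with Amuc_0904, against 13.9, 16.0 and 12.97 TPM with buffer. Its relative PLK3 had 6.19, 7.10 and 8.55 TPM with Amuc_0904, against 7.30, 7.05 and 5.40 TPM with buffer. Both kinases had overlapping libraries, with log2 fold changes of 0.17 for PLK2 and 0.13 for PLK3. BTG2, an antiproliferative gene, averaged 2.63 ± 0.04 TPM with Amuc_0904 and 2.51 ± 0.365 TPM with buffer (SD, 3 libraries each).

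The apoptosis members held 4 of the 5 genes with an unadjusted p under 0.05, and the 4 split evenly in direction. These were 4 of 8 tested apoptosis members, against 20.8% of all tested genes, and none passed an adjusted p of 0.05. With the GC trend of each library removed, 0 of the 8 had an unadjusted p under 0.05 in limma, against 17.0% of genes. BBC3, which encodes the BH3-only killer protein PUMA, had 5.04, 5.44 and 4.02 TPM in Amuc_0904 libraries, against 6.01, 5.62 and 7.49 TPM in buffer libraries. The groups did not overlap and Amuc_0904 was lower, as for 20.1% of all tested genes, although Amuc_0904 replicate 2 and buffer replicate 2 were close. Its log2 fold change was -0.34 (SE 0.14, 95% interval -0.67 to -0.01; limma adjusted p = 0.23). PMAIP1, which encodes the BH3-only protein NOXA, stood the other way, with 22.5, 23.2 and 21.7 TPM with Amuc_0904, against 21.0, 16.6 and 19.5 TPM with buffer. All Amuc_0904 libraries lay above all buffer libraries, as for 7.00% of all tested genes (log2 fold change 0.23, SE 0.10, limma adjusted p = 0.22). So the pair of BH3-only genes most tied to p53 had opposite signs, and neither passed the threshold.

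TRIAP1, which encodes a small mitochondrial protein that restrains apoptosis, had 35.2, 35.9 and 32.8 TPM with Amuc_0904, against 28.4, 28.4 and 32.4 TPM with buffer. Its libraries did not overlap and Amuc_0904 was higher, as for 7.00% of all tested genes. Still, Amuc_0904 replicate 3 and buffer replicate 3 were nearly equal (log2 fold change 0.21, SE 0.08, limma adjusted p = 0.18). PHLDA3, which encodes a repressor of AKT and was among the most abundant members, had 123, 133 and 111 TPM with Amuc_0904, against 132, 153 and 146 TPM with buffer. Amuc_0904 replicate 2 overlapped buffer replicate 1 (log2 fold change -0.23, SE 0.08, limma adjusted p = 0.17, the lowest of any member). BAX, the pore-forming effector of mitochondrial apoptosis and the most abundant member, had 154, 138 and 128 TPM with Amuc_0904, against 137, 150.4 and 133 TPM with buffer. The group means were 139.97 and 140.12 TPM, a log2 fold change of -0.00 (SE 0.08, 95% interval -0.19 to 0.19; limma adjusted p = 0.98).

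The other tested apoptosis members had overlapping libraries. AEN, which encodes an apoptosis-linked nuclease, averaged 31.2 ± 1.97 TPM with Amuc_0904 and 31.0 ± 0.365 TPM with buffer, with a SD over 3 libraries each. TP53I3, which encodes a quinone oxidoreductase, had 17.7, 19.7 and 19.9 TPM with Amuc_0904, against 19.2, 17.2 and 20.6 TPM with buffer. ZMAT3, which encodes an RNA-binding zinc finger protein, had 3.33, 3.55 and 4.01 TPM with Amuc_0904, against 4.51, 4.01 and 4.17 TPM with buffer. Those groups met at 4.01 TPM (log2 fold change -0.18, SE 0.12, limma adjusted p = 0.43). TP53INP1, a nuclear cofactor of p53 in apoptosis and autophagy, was too low to be tested, with 0.41, 0.43 and 0.35 TPM with Amuc_0904 and 0.54, 0.51 and 0.45 TPM with buffer, groups that did not overlap.

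**Figure D2:**
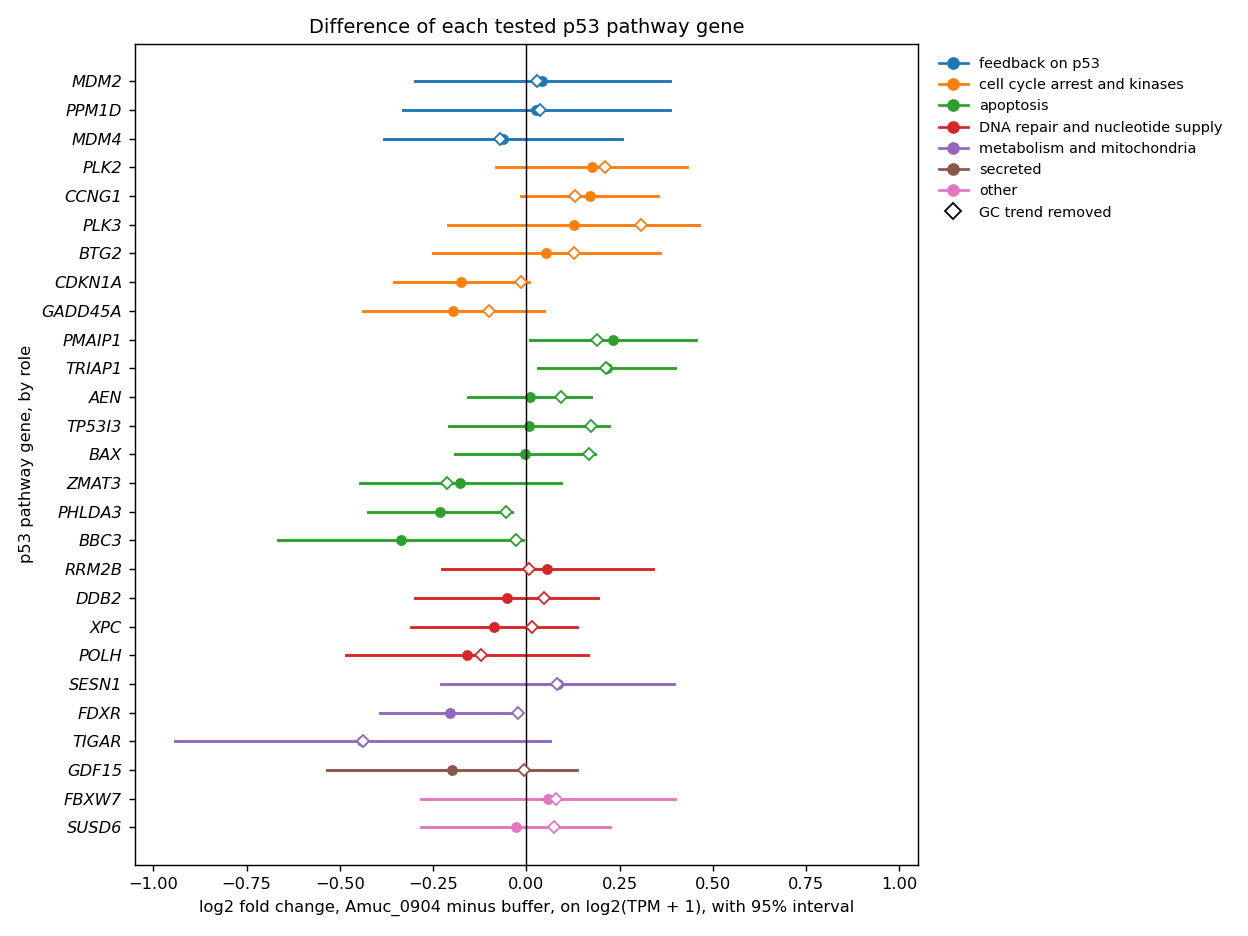
Log2 fold change of each of the 27 tested members, Amuc_0904 minus buffer on log2(TPM + 1), as filled points with 95% intervals and coloured by role, and the same after the GC trend of each library was removed as open diamonds. Intervals of 22 members cover 0, and after GC removal the points of BBC3, CDKN1A, PHLDA3 and FDXR lie within 0.06 of 0.

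No DNA repair member passed the test, and all had overlapping libraries. DDB2, which with its partner finds ultraviolet damage, had 36.8, 43.3 and 48.2 TPM in Amuc_0904 libraries, against 40.1, 46.5 and 46.0 TPM in buffer libraries. The Amuc_0904 libraries held both the lowest and the highest value (log2 fold change -0.05, SE 0.11, limma adjusted p = 0.82). XPC, the damage sensor of nucleotide excision repair, averaged 17.2 ± 0.810 TPM with Amuc_0904 and 18.4 ± 2.02 TPM with buffer (SD, 3 libraries each). RRM2B, the p53-inducible subunit of ribonucleotide reductase, averaged 8.33 ± 0.978 TPM with Amuc_0904 and 7.98 ± 0.976 TPM with buffer. POLH, which encodes the translesion polymerase eta, had 2.92, 2.39 and 3.53 TPM with Amuc_0904, against 3.18, 3.55 and 3.41 TPM with buffer. Its Amuc_0904 libraries were the more scattered, and the log2 fold change was -0.16 (SE 0.14, limma adjusted p = 0.56).

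Metabolic and mitochondrial members included TIGAR, which had both the largest log2 fold change of the tested members from all 6 libraries and the largest SE. TIGAR, which encodes a phosphatase that slows glycolysis, had 3.71, 5.91 and 2.86 TPM in Amuc_0904 libraries, against 5.14, 5.21 and 7.23 TPM in buffer libraries. Amuc_0904 replicate 2 lay above 2 of the buffer libraries, and the log2 fold change was -0.44 (SE 0.22, 95% interval -0.94 to 0.06; limma adjusted p = 0.30). Leaving out Amuc_0904 replicate 3 gave -0.25, and leaving out Amuc_0904 replicate 2 gave -0.67. FDXR, which encodes the mitochondrial ferredoxin reductase, had 14.9, 16.9 and 16.3 TPM with Amuc_0904, against 17.9, 19.1 and 18.8 TPM with buffer. All Amuc_0904 libraries lay below all buffer libraries, as for 20.1% of all tested genes. The log2 fold change of -0.21 (SE 0.08) did not pass (limma adjusted p = 0.20). SESN1, a sestrin gene that restrains mTORC1, had 2.85, 2.78 and 3.36 TPM with Amuc_0904, against 3.23, 2.59 and 2.51 TPM with buffer, with overlapping ranges. SPATA18, a mitochondrial quality control gene, was listed at 0.10 TPM in Amuc_0904 replicate 2 and at 0 in the other 5 libraries, and was not tested.

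The secreted and remaining members likewise did not pass. GDF15, a stress-induced cytokine of the TGF-beta family, had 7.22, 9.47 and 11.5 TPM in Amuc_0904 libraries, against 10.7, 11.04 and 10.6 TPM in buffer libraries. The Amuc_0904 libraries spanned the buffer range on both sides, and the log2 fold change was -0.20 (SE 0.15, limma adjusted p = 0.48). With Amuc_0904 replicate 1 left out it was -0.042, and with Amuc_0904 replicate 3 left out it was -0.34. FBXW7, the substrate receptor of a ubiquitin ligase for cyclin E and MYC, had 6.71, 5.51 and 4.27 TPM with Amuc_0904, against 5.19, 4.92 and 5.39 TPM with buffer. SUSD6, a membrane protein gene, averaged 5.21 ± 0.455 TPM with Amuc_0904 and 5.33 ± 0.306 TPM with buffer (SD, 3 libraries each).

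In order of mean level BAX and PHLDA3 stood above 100 TPM, 13 members lay between 10 and 100 TPM, and 12 tested members lay under 10 TPM. BAX was at the 93.5th percentile of all tested genes, CDKN1A at the 81.9th, MDM2 at the 47.8th and MDM4 at the 13.8th. BAX and PHLDA3 overlapped in level, as did most neighbours in the lower part of that order. The highest value of a member fell in an Amuc_0904 library for 13 of the 27 and in a buffer library for 14, and the median interval had a width of 0.26 log2 units to either side, the same as over all tested genes (0.26).

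Transcript GC content ran alongside the sign of the differences. Among the 14 tested members with a GC content of at most 50.3%, 10 had a log2 fold change above 0 and the median was 0.05. Among the 13 members above it, 10 were below 0 and the median was -0.09. Over all tested genes the medians on either side of the same GC content were 0.01 and -0.15. Across the 27 members Pearson's r between log2 fold change and GC content was -0.46 and Spearman's rho was -0.52, a description over genes of the same 6 libraries. The 5 members with an unadjusted p under 0.05 followed this order, with PMAIP1 (37.2% GC) and TRIAP1 (43.6%) above 0 and PHLDA3 (59.6%), FDXR (61.8%) and BBC3 (69.7%) below 0.

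With the GC trend of each library removed, the log2 fold change of BBC3 was -0.03 in place of -0.34, that of CDKN1A -0.01 in place of -0.17, that of FDXR -0.02 in place of -0.21, that of PHLDA3 -0.06 in place of -0.23 and that of GDF15 -0.01 in place of -0.20. PMAIP1 stood at 0.19, TRIAP1 at 0.21 and TIGAR at -0.44, close to their values before. BAX moved to 0.17 and PLK3 to 0.31, with limma adjusted p of 0.30 and 0.35. After this step 0 of the 27 members had an unadjusted p under 0.05 and 0 passed an adjusted p of 0.05 in limma, against 17.0% and 0.841% of the 14277 genes with a GC value. The GC slope was lower in each Amuc_0904 library than in each buffer library, although Amuc_0904 replicate 2 (0.0021) and buffer replicate 1 (0.0045) were nearly equal. GC slope and treatment thus cannot be told apart in these libraries. The removal would also take out any treatment difference that follows GC content. It is not a test, and the part of GC content in the differences was not tested.

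**Figure D3:**
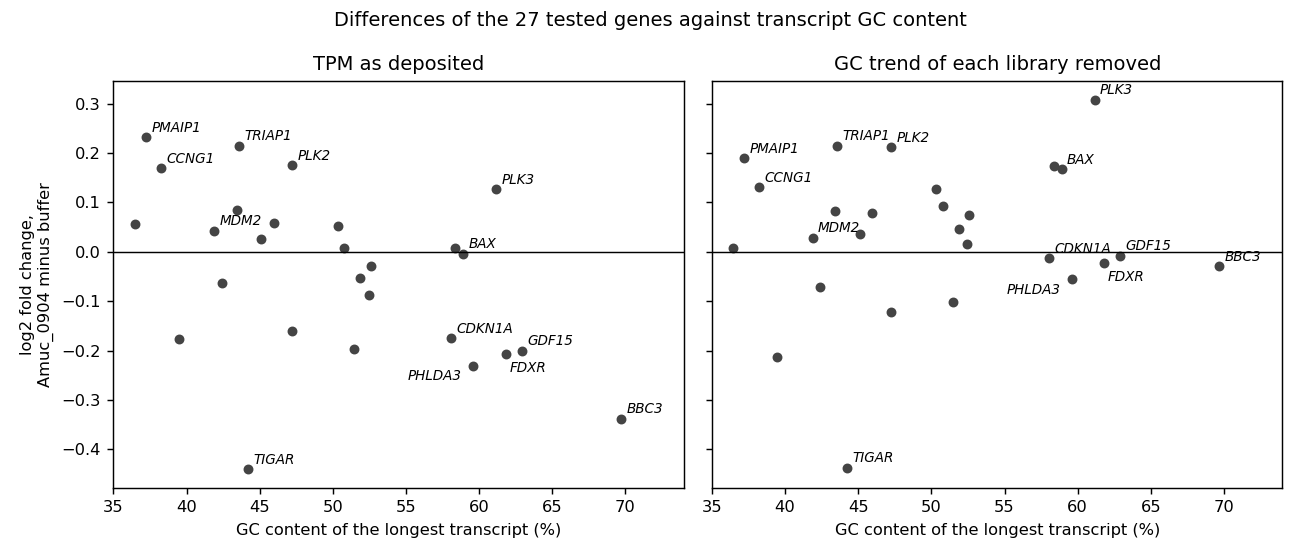
Log2 fold change of the 27 tested members, Amuc_0904 minus buffer, against GC content of the longest transcript in percent, from the deposited TPM on the left and after removal of each library's GC trend on the right. The tilt on the left is downward (r = -0.46). On the right r is 0.10, and the removal takes out a trend of this kind by design. There BBC3, FDXR, PHLDA3 and CDKN1A lie near 0 and TIGAR keeps its place.

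Further genes of the pathway were read from 3 lists. Of 26 tested genes for relatives and regulators of p53, 0 rose and 0 fell, against 1.37% of all tested genes past the threshold. At an unadjusted p under 0.05 in limma there were 4 (15.4%), against 20.8% of all tested genes. PPP1R13L, which encodes the p53 inhibitor iASPP, averaged 21.2 ± 2.42 TPM with Amuc_0904 and 29.3 ± 4.90 TPM with buffer (SD, 3 libraries each; limma adjusted p = 0.12). CREBBP, an acetyltransferase gene and coactivator of p53, averaged 8.27 ± 1.81 TPM with Amuc_0904 and 10.2 ± 1.74 TPM with buffer (limma adjusted p = 0.38). These 2 had the largest changes among genes of the list with a mean of at least 5 TPM. TP73, a p53 relative below that level, averaged 2.94 ± 0.511 TPM with Amuc_0904 and 4.78 ± 0.751 TPM with buffer. Its log2 fold change of -0.55 was the largest of the list (limma adjusted p = 0.099), and -0.37 with the GC trend removed. All its Amuc_0904 libraries were below all buffer libraries, as for 20.1% of all tested genes.

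Of 26 tested further p53 targets, 1 rose, 0 fell and 25 did not pass, against 1.37% of all tested genes past the threshold. At an unadjusted p under 0.05 in limma there were 9 (34.6%), 4 higher and 5 lower, against 20.8% of all tested genes. With the GC trend removed there were also 9 (34.6%), 7 higher and 2 lower, against 17.0% of genes. PERP, a p53 target that encodes a membrane protein of desmosomes, had 82.7, 81.2 and 89.9 TPM in Amuc_0904 libraries, against 54.8, 52.4 and 54.9 TPM in buffer libraries. All Amuc_0904 libraries were far above all buffer libraries, a 1.57-fold difference (log2 fold change 0.64, SE 0.06, limma adjusted p = 0.0078). The PERP call held without each single library but not without both Amuc_0904 replicate 3 and buffer replicate 2 (adjusted p = 0.079), nor with no filter on low TPM (adjusted p = 0.055). With the GC trend removed 2 of the 26 rose, against 0.841% of genes, PERP and CD82, a tetraspanin gene known as a metastasis suppressor and named after its values were seen. CD82 had 118, 128 and 102 TPM in Amuc_0904 libraries, against 85.4, 92.8 and 89.2 TPM in buffer libraries, which did not overlap. Its log2 fold change was 0.37 as deposited (limma adjusted p = 0.075) and 0.54 with the GC trend removed (limma adjusted p = 0.023), and it passed in 3 of 16 alternatives. Libraries of the treatments did not overlap for 11 of the 26 (42.3%), against 27.1% of all tested genes. Of these, 5 were higher with Amuc_0904 (7.00% of all tested genes were) and 6 were lower (20.1% of all tested genes were).

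The third list held 30 cell cycle genes that active p53 is known to lower through CDKN1A and the DREAM repressor complex. Of these 0 rose, 1 fell and 29 did not pass, against 1.37% of all tested genes past the threshold. At an unadjusted p under 0.05 in limma there were 13 (43.3%), all lower with Amuc_0904, as were 16.3% of all tested genes. Libraries did not overlap for 15 of the 30, all lower, as were 20.1% of all tested genes. CENPA, which encodes the centromeric histone H3 variant, had 54.8, 46.7 and 43.4 TPM with Amuc_0904, against 67.0, 68.7 and 65.4 TPM with buffer. The log2 fold change of -0.47 (SE 0.09) passed narrowly (limma adjusted p = 0.048), and the call ended in 13 of 16 alternatives, among them leaving out any single library except Amuc_0904 replicate 1. In all, 26 of the 30 genes had a log2 fold change below 0, against 62.5% of all tested genes, and the list median was -0.13 beside -0.06. After GC removal 26 of the 30 were below 0, against 50.4% of all genes with a GC value, with a median of -0.10 beside -0.00 over all genes. An unadjusted p under 0.05 was then seen for 10 (33.3%), 9 lower and 1 higher, against 17.0% of genes. In the textbook pathway CDKN1A links p53 to these genes. As deposited, CDKN1A was lower in all Amuc_0904 libraries than in all buffer libraries, and the difference of -0.17 log2 units did not pass. GC removal left CDKN1A at -0.01 log2 units. The part of p53 or CDKN1A in the lower values of this list was not tested.

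**Figure D4:**
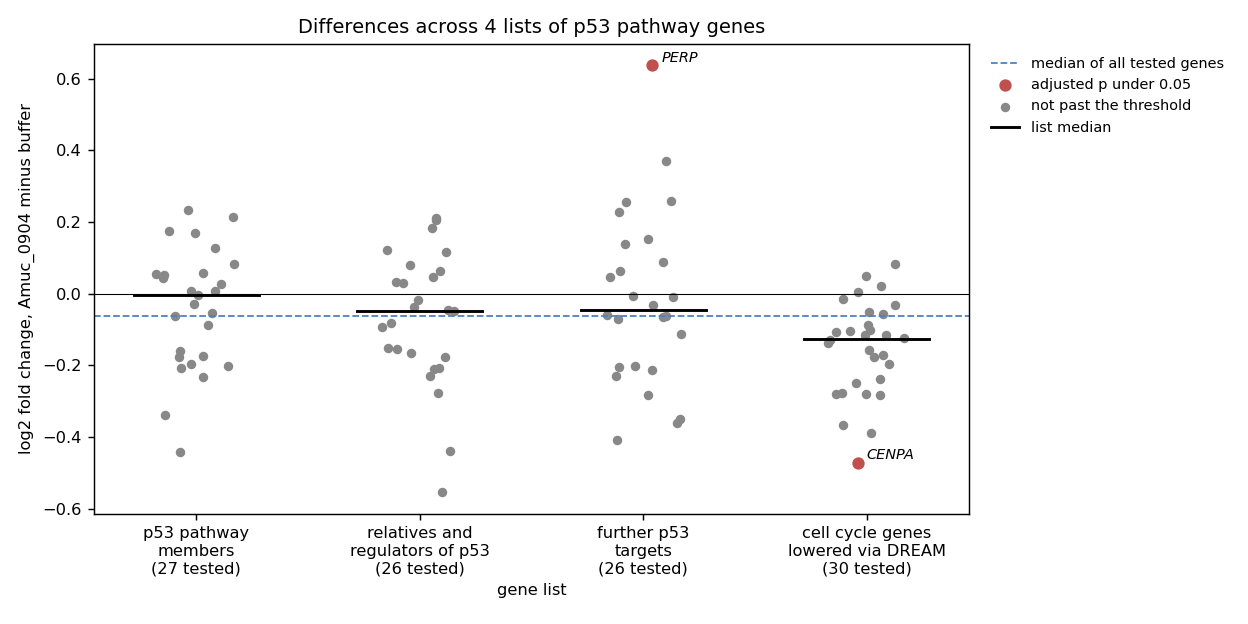
Log2 fold change, Amuc_0904 minus buffer, of each tested gene in the 4 lists, with list medians as black bars and the median of all tested genes as a dashed line. PERP at 0.64 and CENPA at -0.47 are the 2 genes past an adjusted p of 0.05, and none of the 27 members is among them.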

How the data were processed

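Expression was measured in 6 SW480 libraries, 3 per group, grouped by the treatment in the labels. The authors deposited TPM values per gene, rounded to 2 decimals, quantified with RSEM per the series' design text. HISAT2, StringTie, edgeR and a mouse build (GRCm38.p6) appear in the submitters' processing notes with no version or role. The gene identifiers are human, so the annotation used is uncertain. TPM keeps no read number, so no counting interval is given. RNA was extracted with TRIzol, per the labels' protocols.

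Values were taken as log2(TPM + 1), and limma 3.58.1 in R 4.3.3 (two-sided, with a mean-variance trend) was fitted to the 14421 genes that reached 1 TPM in 3 or more libraries, with Benjamini-Hochberg adjustment over all of them. GC content was that of the longest GENCODE 29 transcript (99% of tested genes), removed per library by loess (span 0.3). Positions are matched by Ensembl identifier to GENCODE 29 on GRCh38, and promoter sequences are from RefSeq. The workflow was tested on simulated data. The members, lists and roles were chosen with earlier results of these data known. All members are named, and of the further lists those past the threshold, or else the 2 with the largest change among genes with a mean of at least 5 TPM. The result for 1 gene set down for the first list is not reported here, and that gene was left out of the list's counts. PHLDA3, GADD45A and the other members written out by library beyond those whose libraries do not overlap and MDM2, MDM4, PPM1D, CDKN1A, GDF15, BBC3 and BAX were picked after their values were seen, as were TP73, CD82, CDH1 and CDX2. Figures were drawn with matplotlib 3.10.9.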

Additional observations from a re-analysis of the deposited data

How the results depend on the processing

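In each of the 16 refits tried, as at an adjusted p of 0.01, 0 members were called (lowest adjusted p = 0.11, BBC3 with mitochondrial share as a covariate). Over all genes the calls numbered 197, against 432 at 5 TPM or more, 9 with no filter, 85 median centred, 102 quantile normalized, 120 with the GC trend removed, 29 at an adjusted p of 0.01, 35 to 112 without single libraries, and 16 without the pair at the extremes of the GC slope (Amuc_0904 replicate 3 and buffer replicate 2). Leaving out this pair and the mitochondrial covariate were chosen after seeing the data. Calls in the 3 further lists numbered 2, against 6 at 5 TPM or more, 1 with a pseudocount of 0.1, median centred, quantile normalized or at an adjusted p of 0.01, 0 with no filter or without that pair, and 1 to 2 without single libraries. The members' median was 0.077 median centred, 0.055 quantile normalized, -0.071 without the pair and -0.070 to 0.0074 without single libraries. Deviations of same-numbered libraries correlated at -0.03, 0.08 and -0.09, and those of libraries with unlike numbers at -0.12 to 0.14. With 3 libraries per group this cannot decide whether same-numbered libraries were handled together, which the labels do not say. With a replicate block 80 genes and 1 further gene were called, and 17 and 1 with the GC trend removed as well. Mitochondrial share as a covariate gave 263 genes and 3 further genes.

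Of the tested members 14 kept their sign in every refit that tested them and 13 did not (at 5 TPM or more 21 were tested). Median centring gave log2 fold changes of 0.018 for MDM4, 0.077 for BAX, 0.027 for DDB2 and 0.051 for SUSD6, and quantile normalization gave 0.0092 for MDM4, 0.014 for BAX, 0.020 for DDB2 and 0.055 for SUSD6. GC removal, with or without the replicate block, gave 0.17 for BAX, 0.016 for XPC, 0.046 for DDB2 and 0.075 for SUSD6. Without the pair the values were -0.12 for PPM1D, -0.025 for BTG2, 0.11 for BAX, -0.091 for TP53I3, -0.0027 for RRM2B and -0.014 for SESN1. Without single libraries the ranges were -0.091 to 0.14 for MDM2, -0.14 to 0.021 for MDM4, -0.075 to 0.17 for PPM1D, -0.033 to 0.12 for BTG2, -0.075 to 0.059 for BAX, -0.035 to 0.054 for AEN, -0.061 to 0.066 for TP53I3, -0.14 to 0.049 for DDB2, -0.033 to 0.13 for RRM2B, -0.074 to 0.20 for FBXW7 and -0.070 to 0.033 for SUSD6. Of members that kept their sign in every refit, the ranges without single libraries were -0.26 to -0.055 for POLH, 0.086 to 0.25 for PLK2, 0.0088 to 0.22 for PLK3, -0.22 to -0.10 for CDKN1A, -0.31 to -0.13 for GADD45A, 0.12 to 0.26 for CCNG1 and 0.14 to 0.30 for PMAIP1. XPC (-0.17 to -0.026) and SESN1 (0.020 to 0.17) kept their sign without each single library but changed it in other refits given above. The cause of these changes was not tested. The number of reads behind the values is unknown.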
